A study of Mus musculus with 21 samples.

Results

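The guidance genes described here are the members of 4 ligand and receptor systems first known from growing axons: the semaphorins with their plexin receptors, the ephrins with the Eph receptors, the Slits with the Robo receptors, and the netrins with Dcc and the Unc5 receptors. They were chosen by symbol from the genes of the array, whatever their values, and came to 66 of 18193 genes: 20 semaphorins, 9 plexins, 8 ephrins, 13 Eph receptors, 3 Slits, 4 Robo receptors, 4 netrins and 5 netrin receptors. All were followed across mouse nephron progenitors that were freshly isolated, cultured, or cultured with BIO, an inhibitor of the kinase GSK3 that activates canonical Wnt signalling through beta-catenin.

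Cells were sorted from embryonic kidneys at E16.5 that carried the Six2GFPcre BAC transgene, in which Six2, a gene of the self-renewing progenitors of the nephron, drives the reporter, and the labels give a mixed strain background for all of them. There were 7 groups of 3 arrays, of 40000 cells each. They were freshly isolated cells, dispersed cells cultured for 24 h with DMSO (the solvent) or with 4 µM BIO, and cells pelleted into aggregates and cultured for 24 h with DMSO or with 4 µM BIO. The remaining groups were aggregates given BIO for 24 h and then DMSO for another 24 h (BIO withdrawn), and aggregates kept in BIO for 48 h (BIO kept). The medium held 10% fetal bovine serum. No group of aggregates had DMSO alone for 48 h, so a change over the second day cannot be told apart from the effect of time in culture. The labels call the arrays of a group biological replicates without naming litters or cultures, so p-values measure the spread between these samples.

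Semaphorins are secreted or membrane-bound ligands that turn growth cones and migrating cells, mostly by repulsion, through plexins, and the secreted class 3 semaphorins usually need a neuropilin as coreceptor. Ephrins stay on the cell surface and signal through Eph receptor tyrosine kinases on the neighbouring cell, often in both directions, and sort cells into separate domains. Slits repel through Robo receptors, and in the early kidney Slit2 and Robo2 limit where the ureteric bud grows out. Netrins attract through Dcc and repel through Unc5 receptors, and netrin-4 is also part of basement membranes.

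Values are array signals, quantile normalised between arrays, with 1 probe set for each gene. A level is given as a signal, and a difference as a log2 difference with its standard error (SE) from limma, with p-values adjusted by the Benjamini-Hochberg method over all 18193 genes and a threshold of 0.05. Levels of different genes come from different probe sets and are not compared as amounts of RNA. Where a member is called the brightest of its family, this ranks array signals only. Background was a signal of 41.8, below which 95% of the values of 27 bacterial control probe sets lay, and a group counts as above background by its mean log2 signal. Where 1 of the groups lay below background, the difference is given as "at least" a fold, taken against the higher of the background and the gene's own signal on each array of the dim group. As these are bulk samples, fewer cells of a type and less RNA per cell cannot be told apart.

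Median array signals ran from 87.2 to 106, and 76.0% to 79.6% of genes exceeded background. Six2, the gene that marks nephron progenitors, had signals from 8565 to 9270 in fresh cells, from 4055 to 5171 in the DMSO cultures at 24 h, and from 407 to 541 in the aggregates kept in BIO. Of 11 measured nephron progenitor markers, 11 were above background in fresh cells. With BIO 5 of them rose and 6 fell in aggregates, 3 rose and 5 fell in dispersed cells, and 3 were higher and 3 lower with BIO kept than withdrawn. The interstitial stroma list stood above background for 10 of 10 markers in every group, fresh cells included, with a summed signal of 17647 to 18777 there. One group stood apart in a control: the 3′ beta-actin control read 2669 to 5410 in the BIO aggregates at 24 h and at least 6344 on every array of the other groups. It read 8628 to 9219 in dispersed BIO cells and 11993 to 12313 in dispersed DMSO cells. At 48 h it read 6344 to 11267 with BIO kept and 11973 to 12844 with BIO withdrawn. Whether these readings are technical or an effect of BIO was not tested. Calls that rest on the BIO aggregates at 24 h were therefore also computed with this control as a covariate. Since every array of that group lies below all others in the control, the covariate can also take away part of a BIO effect. A call lost with it does not tell a BIO effect from an effect of the control.

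Most of the guidance genes were measurable in these cells. The level was above background in every group for 49 of the 66, in some groups for 14, and in no group for 3 (Epha8, Epha10 and Slit3). For 24 members the highest and the lowest group mean differed by 2 or more on the log2 scale. These spans use the signals as they are, also below background. Sema3d spanned 6.12, Dcc 5.95, Epha3 5.71, Robo2 5.18, Sema3e 4.96 and Sema3c 4.35. The lowest group of Dcc, Epha3, Robo2 and Sema3e lay below background, so the sizes and order of these spans are not exact. At least 1 of the 12 comparisons was passed by 53 members (80.3%, beside 67.6% of all genes) and none by 13, among them Efna2, Sema4b and Plxnb3, which were above background in every group.

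**Figure D1:**
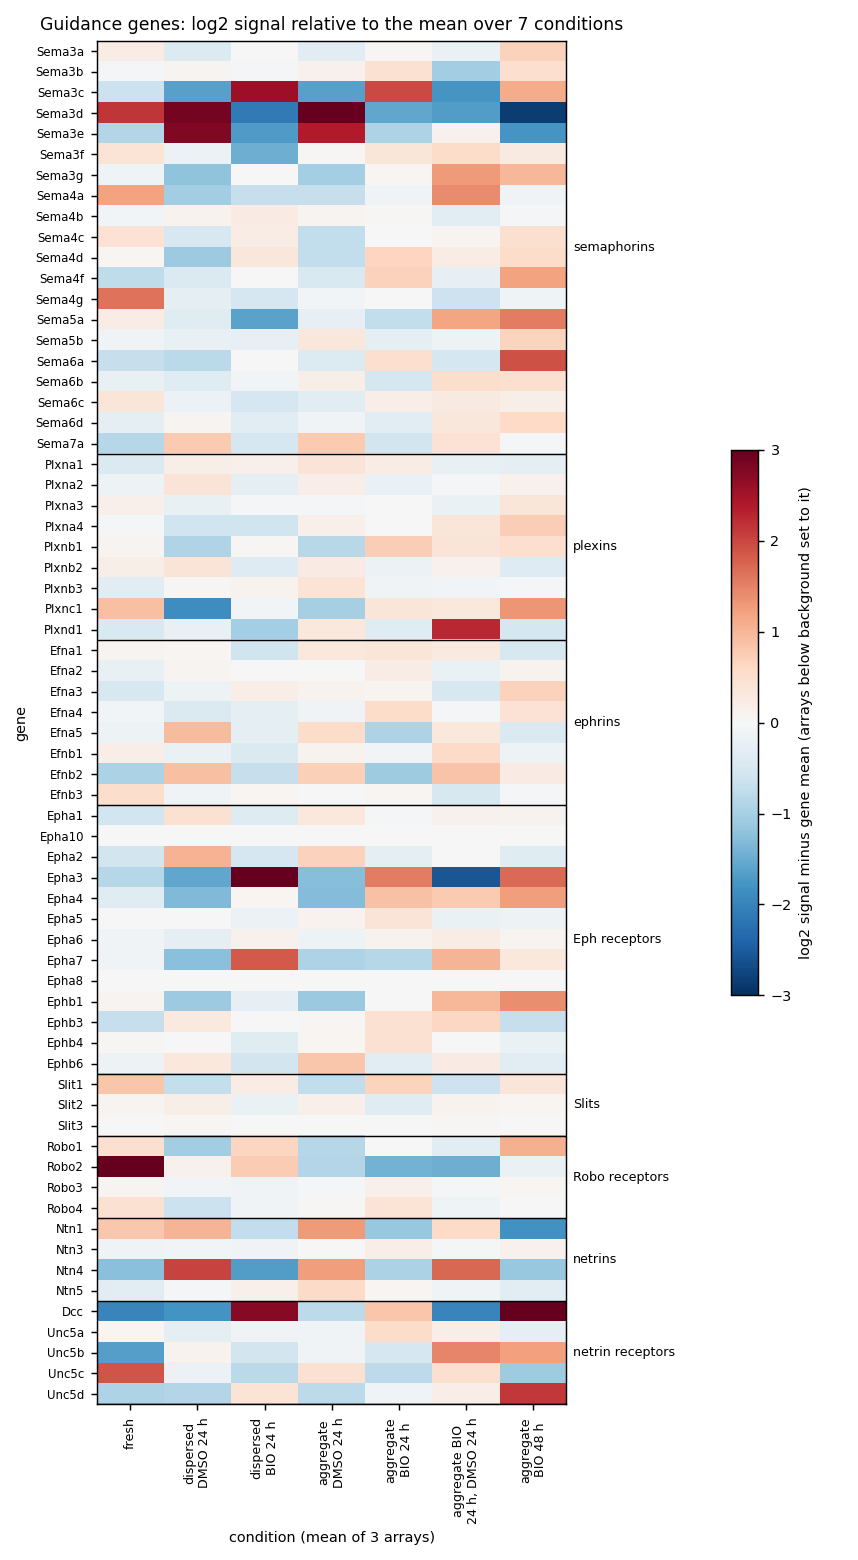
Mean log2 signal of each of the 66 guidance genes (rows, by family) in the 7 groups (columns, 3 arrays each), relative to the gene's own mean over the 7 groups, with arrays below background set to it and colours ending at 3 in either direction. Sema3c, Epha3 and Dcc are high in the 3 groups that ended in BIO, Sema3d and Sema3e are high in the DMSO cultures at 24 h, and Robo2 is high in fresh cells.

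BIO moved guidance genes in both directions. In aggregates at 24 h, 16 members rose and 13 fell against DMSO, 43.9% of the list in all, where 17.5% of all genes rose and 12.5% fell (30.0% together). In dispersed cells 16 rose and 19 fell (53.0%), where 15.3% of all genes rose and 13.4% fell (28.8%). Between BIO kept and BIO withdrawn at 48 h, 16 members were higher with BIO kept and 13 lower, against 11.1% and 9.29% of all genes (20.4%). The median difference of the list was 0.07, -0.02 and 0.03 in these comparisons, beside 0.09, 0.02 and 0.06 for all genes. With only the compared arrays in the fit the count for BIO kept against withdrawn was 19.

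With the beta-actin covariate 18 members passed in aggregates (7 up, 11 down): 16 of the 29 kept their call, 13 lost it, and Epha7 (2.14, adjusted p = 0.00604) and Sema5a (-1.29, adjusted p = 0.0047) gained one. Of the rises, those lost were Dcc (0.79), Efna4 (0.59), Ephb1 (0.68), Plxnc1 (1.38), Robo1 (0.61), Sema3g (1.12), Sema4c (0.23), Sema4f (0.78), Sema6a (0.46) and Unc5d, which turned to -0.25, with adjusted p from 0.111 for Plxnc1 to 0.787 for Sema4c. Of the falls, those lost were Plxnb2 (-0.45, adjusted p = 0.0859), Plxnd1 (-0.97, adjusted p = 0.182) and Sema7a (-2.24, adjusted p = 0.0587). Sema3c, Epha3, Epha4, Plxnb1, Sema4d and Slit1 kept their rise, and Sema3d, Sema3e, Efnb2, Efna5, Ntn1, Ntn4, Unc5c, Epha2, Ephb6 and Slit2 their fall. In dispersed cells, which do not involve that group, 34 of 35 calls held. Between BIO kept and withdrawn 24 of 29 did, without Efna4, Efnb3, Plxnc1, Sema3a and Sema3d.

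Culture itself changed the list as well. Against fresh cells, 15 members rose and 15 fell in DMSO aggregates (18.4% and 14.5% of all genes, 32.9% together), and 12 rose and 23 fell in dispersed DMSO cells (15.0% and 18.3%, 33.3% together). In BIO aggregates 16 rose and 13 fell against fresh cells (21.9% and 11.8%, 33.7% together), and in dispersed BIO cells 11 rose and 16 fell (12.7% and 13.2%, 25.9% together). Over the second day in BIO 17 rose and 8 fell (8.05% and 12.8%, 20.8% together), and over a DMSO day after BIO 19 rose and 14 fell (8.66% and 16.2%, 24.9% together). Aggregates and dispersed cells differed in 1 member in DMSO (2.63% of all genes), and in BIO in 18, of which 10 were higher in aggregates and 8 lower (12.6% and 4.66%, 17.2% together). These comparisons share groups, so their counts are not independent of each other. Markers of the sorted cells and of stroma moved in the same comparisons. Against fresh cells, 9 of 11 nephron progenitor markers fell in each DMSO culture, 8 in BIO aggregates and 11 in dispersed BIO cells, and none rose. Of 10 stromal markers 2 rose and 5 fell in DMSO aggregates, 2 rose and 6 fell in dispersed DMSO cells, 10 fell in BIO aggregates and 9 in dispersed BIO cells. Over the second day 3 stromal markers fell in BIO and 7 rose in DMSO. Their part in the members' changes was not tested.

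Without quantile normalisation the median of all genes moved from 0.18 to 0.05 for aggregates against dispersed cells in BIO, from 0.18 to 0.04 for BIO aggregates against fresh cells, and from -0.16 to -0.04 for the DMSO day after BIO. The share of all calls that were higher then moved from 73.0% to 48.5%, from 64.9% to 48.9% and from 34.9% to 52.6%. For BIO in aggregates it moved from 58.4% to 47.1%, and for aggregates against dispersed cells in DMSO from 69.9% to 38.9%. Centring arrays on their medians moved it to 86.2% for that last comparison, to 84.6% for aggregates against dispersed cells in BIO and to 69.0%, from 55.9%, for DMSO aggregates against fresh cells. Of 127 member results named for their size, none changed sign with either scaling and 1 lost its call without quantile normalisation, Sema3e between aggregates and dispersed cells in BIO (0.81, adjusted p = 0.127).

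The 2 members that BIO raised most in both formats, apart from Dcc, and the 2 that it lowered most are shown here by the 250 bases before their transcription start, from RefSeq's mouse annotation (GRCm38.p6), 5′ to 3′ on the gene's strand, since TCF and LEF factors, the DNA-binding partners of beta-catenin, bind the core CTTTGA or its reverse complement TCAAAG. Capitals mark a match to that core on either strand.
The windows are chr5:17574566-17574815 (plus strand) for Sema3c, chr16:63864176-63864425 (minus strand) for Epha3, chr5:12382916-12383165 (plus strand) for Sema3d and chr5:14025026-14025275 (plus strand) for Sema3e.
Sema3c: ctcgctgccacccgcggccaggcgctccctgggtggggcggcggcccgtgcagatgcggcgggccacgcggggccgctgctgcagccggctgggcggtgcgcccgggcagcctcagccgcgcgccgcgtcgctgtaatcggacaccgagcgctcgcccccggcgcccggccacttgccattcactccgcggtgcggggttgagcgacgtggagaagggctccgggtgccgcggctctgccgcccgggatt
Epha3: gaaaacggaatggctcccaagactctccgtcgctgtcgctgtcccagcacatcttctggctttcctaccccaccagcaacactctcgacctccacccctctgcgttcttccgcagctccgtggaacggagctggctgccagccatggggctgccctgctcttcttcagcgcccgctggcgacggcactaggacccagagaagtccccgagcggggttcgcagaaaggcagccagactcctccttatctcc
Sema3d: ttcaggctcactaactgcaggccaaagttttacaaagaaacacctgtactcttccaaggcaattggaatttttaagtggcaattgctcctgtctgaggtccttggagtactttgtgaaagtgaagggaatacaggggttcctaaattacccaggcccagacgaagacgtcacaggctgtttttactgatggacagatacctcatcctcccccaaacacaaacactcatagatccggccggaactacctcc
Sema3e: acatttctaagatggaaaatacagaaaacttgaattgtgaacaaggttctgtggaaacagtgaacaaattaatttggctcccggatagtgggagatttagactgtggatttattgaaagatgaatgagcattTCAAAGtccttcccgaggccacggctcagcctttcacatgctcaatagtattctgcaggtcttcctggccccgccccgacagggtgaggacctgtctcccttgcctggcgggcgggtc
The Sema3c window was 78.4% G and C with 39 CpG sites, and the Epha3 window 62.8% with 16. The windows of the lowered pair held 46.8% with 4 CpG sites (Sema3d) and 48.0% with 7 (Sema3e), where the median window of all genes held 52.4% with 6. Of these windows, 1 had a match, in Sema3e, starting 118 bases before the start site. Over 32851 windows of the same length 13.8% held the core, and of 72 windows of 56 matched members 3 did, those of Epha2, Sema3e and Robo4. The member windows had a median of 64.2% G and C, against 52.4% for all windows. The part of base content in the number of matches was not tested. A match is only a run of letters, and its absence speaks for this window alone.

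Sema3c, a secreted class 3 semaphorin that acts through neuropilins with plexins, had the largest rise in aggregates. Its signals were 399, 463 and 571 in DMSO aggregates and 6497, 5704 and 5255 in BIO aggregates. In dispersed cells they were 469, 506 and 433 in DMSO and 9274, 8148 and 8676 in BIO. The groups did not overlap in either format, and the log2 difference was 3.61 ± 0.15 (SE, 3 arrays a group, adjusted p = 6.54e-11) in aggregates and 4.21 ± 0.15 (adjusted p = 9.15e-12) in dispersed cells. After BIO was withdrawn the signals were 435, 490 and 358, in the range of the DMSO aggregates a day earlier, while BIO kept gave 3057, 3167 and 3212. Fresh cells lay between, at 1147, 898 and 793. Sema3c therefore rose against its DMSO control, fell by 3.77 ± 0.15 over the DMSO day (adjusted p = 1.25e-10), and also fell by 0.88 ± 0.15 over a second day in BIO (adjusted p = 0.000515), a call that the beta-actin covariate ended (-0.45, adjusted p = 0.205). Its second probe set rose too, by 2.35 ± 0.22 in aggregates (adjusted p = 6.87e-07 over all probe sets).

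Sema3d and Sema3e, also secreted class 3 semaphorins, went the other way. Sema3d read 2924, 3557 and 3560 in DMSO aggregates and 125, 139 and 112 in BIO aggregates. Dispersed cells gave 2734, 2510 and 2947 in DMSO and 104, 99.2 and 57.2 in BIO. The log2 difference was -4.72 ± 0.33 in aggregates (adjusted p = 2.08e-08) and -5.01 ± 0.33 in dispersed cells (adjusted p = 8.78e-09). The groups did not overlap in either format, and every BIO array still lay above background. Fresh cells held 1707, 1710 and 1466.

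Sema3d stayed near its BIO level after BIO was removed. Its signals after the DMSO day were 195, 125 and 62.3, against 125, 139 and 112 before it, a difference of -0.12 ± 0.33 (adjusted p = 0.833). With BIO kept they were 71.1, 33.6 and 43.2, lower than with BIO withdrawn by -1.28 ± 0.33 (adjusted p = 0.0114), although the ranges overlap and the call was lost with the beta-actin covariate (-1.13, adjusted p = 0.0704). The second probe set of Sema3d, which read low throughout, also fell with BIO in both formats (-3.33 ± 0.66 and -3.75 ± 0.66, adjusted p = 0.00142 and 0.000531 over all probe sets), and did not pass between BIO kept and withdrawn (0.88 ± 0.66, adjusted p = 0.441).

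Sema3e, whose receptor is plexin D1, was the member that culture raised most. Fresh cells read 84.7, 91.2 and 88.6. Dispersed DMSO cells read 1154, 1014 and 1194, and DMSO aggregates 688, 878 and 1053, which is 3.65 ± 0.31 (adjusted p = 1.21e-07) and 3.27 ± 0.31 (adjusted p = 4.85e-07) above fresh cells. With BIO the signals lay at or below the fresh range or slightly over it, at 56.5, 51.6 and 29.6 in dispersed cells and 102, 86.7 and 72.6 in aggregates, lower than in DMSO by -4.63 ± 0.31 (adjusted p = 8.40e-09) and -3.30 ± 0.31 (adjusted p = 4.94e-07). The other 3 of its 4 probe sets fell with BIO in both formats as well. After the DMSO day Sema3e read 189, 204 and 146, a rise of 1.04 ± 0.31 (adjusted p = 0.0211) that left it below every DMSO array at 24 h and that did not pass with the beta-actin covariate (0.72, adjusted p = 0.643). BIO kept was at least 3.73-fold lower than BIO withdrawn (adjusted p = 3.55e-05), at 59.0, 19.7 and 36.2.

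Sema3a, Sema3c, Sema3d and Sema3e all lie on mouse chromosome 5. Sema3a, the classical collapsing factor for axons, did not share these changes: its signals were 309, 286 and 350 in DMSO aggregates and 363, 409 and 447 in BIO aggregates, and it passed only where BIO kept was compared with withdrawn (0.90 ± 0.21, adjusted p = 0.00514, ranges overlapping), over the second day in BIO (0.65 ± 0.21, adjusted p = 0.0365) and in dispersed DMSO cells against fresh cells (-0.63 ± 0.21, adjusted p = 0.0292). Each of these 3 calls was lost with the beta-actin covariate (0.71, 1.03 and -0.54, adjusted p = 0.0552, 0.0603 and 0.0625).

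**Figure D2:**
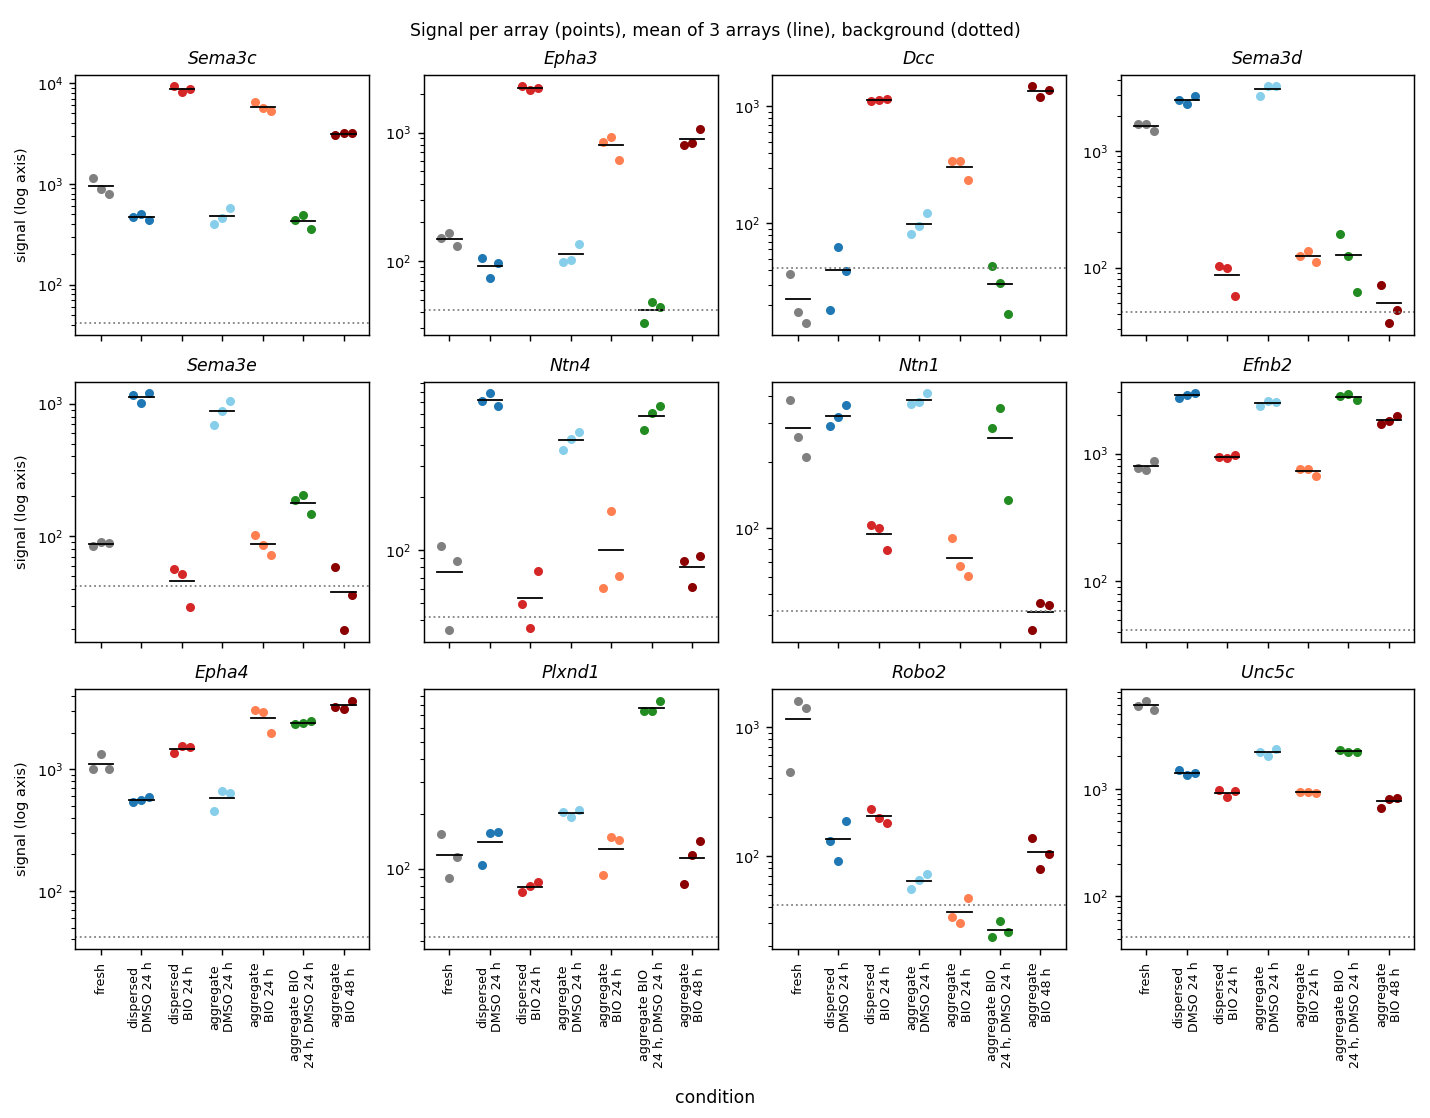
Signal on each of the 21 arrays (points, log axis) of 12 guidance genes in the 7 groups, with the mean of 3 arrays (line) and the background of 41.8 (dotted). Sema3c, Epha3 and Dcc fall back after BIO withdrawal, Ntn4, Ntn1 and Efnb2 rise again, Epha4 stays high and Sema3d stays low.

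Among the membrane-bound semaphorins, Sema4d and its receptor Plxnb1 rose together. Sema4d read 348, 313 and 347 in DMSO aggregates and 849, 880 and 889 in BIO aggregates, a difference of 1.38 ± 0.12 (adjusted p = 3.49e-07), and rose by 1.43 ± 0.12 in dispersed cells (adjusted p = 1.89e-07). Plxnb1 read 564, 604 and 648 in DMSO aggregates and 1822, 1769 and 1759 in BIO aggregates, a difference of 1.56 ± 0.08 (adjusted p = 6.63e-10). The groups of neither gene overlap, and both had fallen in culture: Plxnb1 was 1186, 1164 and 1064 in fresh cells and Sema4d 698, 555 and 507. After withdrawal Plxnb1 stayed at 1432, 1345 and 1472, close to the 1408, 1497 and 1641 of BIO kept (0.10 ± 0.08, adjusted p = 0.479), and Sema4d at 642, 600 and 712 (0.34 ± 0.12, adjusted p = 0.0671).

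Sema6a, a transmembrane semaphorin that binds A-type plexins, was higher after 24 h of BIO and higher again after 48 h. It read 156, 219 and 234 in DMSO aggregates, 374, 377 and 372 after 24 h of BIO, and 799, 1025 and 1255 after 48 h. The first of these steps was 0.90 ± 0.17 and was lost with the beta-actin covariate (0.46, adjusted p = 0.365). Withdrawal gave 213, 166 and 181, so that BIO kept exceeded withdrawn by 2.44 ± 0.17 (adjusted p = 2.56e-08) with no overlap. Its 2 dimmer probe sets did not show this (0.04 ± 0.23 and 0.12 ± 0.54, adjusted p = 0.948 and 0.925 over all probe sets), and with the mean of all probe sets the rise over the second day was lost (0.03, adjusted p = 0.946).

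Sema5a, which carries thrombospondin repeats, rose over the second day with or without BIO. It read 273, 228 and 182 in BIO aggregates at 24 h, 941, 847 and 804 after withdrawal and 978, 1079 and 1253 with BIO kept. The rise was 1.94 ± 0.18 (adjusted p = 1.38e-06) after withdrawal and 2.28 ± 0.18 (adjusted p = 3.14e-07) with BIO kept. The lowest values were those of dispersed BIO cells, 140, 131 and 101.

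Sema4a, a ligand also known from immune cells, and Sema4g were high in fresh cells. Sema4a read 286, 177 and 181 there, 46.7, 33.1 and 38.1 in dispersed DMSO cells (at least 4.73-fold lower, adjusted p = 3.28e-06) and 36.4, 59.3 and 70.5 in DMSO aggregates (-1.95 ± 0.27, adjusted p = 3.43e-05). It returned to 248, 232 and 256 after BIO withdrawal, but stayed at 80.8, 101 and 72.8 with BIO kept (-1.53 ± 0.27, adjusted p = 0.000553). The chosen Sema4a probe set is of a kind that can bind other transcripts. With the mean of all probe sets the fall of Sema4a in BIO aggregates against fresh cells did not pass (-0.69, adjusted p = 0.0613). Sema4g, at 1055, 946 and 675 in fresh cells, fell by 1.70 ± 0.21 in DMSO aggregates (adjusted p = 1.13e-05) and by 1.90 ± 0.21 in dispersed DMSO cells (adjusted p = 2.74e-06), and no cultured array exceeded 355.

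Sema7a, a glycolipid-anchored ligand of plexin C1, rose in culture by 1.71 ± 0.40 in both DMSO formats (adjusted p = 0.00323 in aggregates and 0.00287 in dispersed cells) and was lower with BIO than with DMSO (-1.46 ± 0.40 and -1.30 ± 0.40, adjusted p = 0.0097 and 0.0209), although the call in aggregates was lost with the beta-actin covariate. With the mean of all its probe sets neither culture call held (0.48 and 0.12, adjusted p = 0.463 and 0.885). Sema3b did not pass with BIO at 24 h in either format (0.32 and -0.12, adjusted p = 0.120 and 0.612), and the 48 h groups did not overlap: 436, 470 and 480 with BIO kept and 187, 175 and 120 with BIO withdrawn (1.54 ± 0.15, adjusted p = 1.18e-06). Sema3g read 50.8, 72.5 and 38.1 in DMSO aggregates, 103, 128 and 114 in BIO aggregates (1.13 ± 0.33, adjusted p = 0.0156, and 0.304 with the beta-actin covariate), and 193, 296 and 329 after withdrawal, and in dispersed cells was at least 2.34-fold higher with BIO (adjusted p = 0.000748).

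Among 9 plexins, 2 rose and 2 fell with BIO in aggregates, and 2 rose and 3 fell in dispersed cells, beside 30.0% and 28.8% of all genes called in either direction. Plxnd1 had the largest change of any of them after BIO withdrawal. This receptor of Sema3e read 206, 193 and 209 in DMSO aggregates and 92.6, 148 and 144 in BIO aggregates (-0.68 ± 0.23, adjusted p = 0.0353, and 0.182 with the beta-actin covariate). After BIO withdrawal it read 738, 739 and 845, above every other array of the series, and BIO kept gave 82.2, 118 and 141. The difference between kept and withdrawn was -2.79 ± 0.23 (adjusted p = 2.54e-07), and the rise over the DMSO day 2.61 ± 0.23 (adjusted p = 6.03e-07). Plxnd1 has 1 probe set on the array.

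Plxnc1, the receptor of Sema7a, fell in culture, where Sema7a rose on its chosen probe set but did not pass with the mean of its probe sets. Plxnc1 read 401, 271 and 290 in fresh cells, 46.0, 36.5 and 49.8 in dispersed DMSO cells (-2.82 ± 0.27, adjusted p = 6.12e-07) and 62.7, 83.2 and 115 in DMSO aggregates (-1.89 ± 0.27, adjusted p = 5.18e-05). BIO raised it to 191, 166 and 127 in dispersed cells (1.84 ± 0.27, adjusted p = 7.40e-05) and to 187, 189 and 296 in aggregates (1.36 ± 0.27, adjusted p = 0.00109, and 0.111 with the beta-actin covariate), and it reached 416, 397 and 465 with BIO kept. Plxnb2, the plexin with the highest mean signal, fell slightly with BIO, by 0.42 ± 0.09 in aggregates (adjusted p = 0.00112, and 0.0859 with that covariate) and by 0.76 ± 0.09 in dispersed cells (adjusted p = 3.44e-06). Plxna4 and Plxnb3 passed in none of the 12 comparisons.

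In the ephrin and Eph system, calls went both ways among receptors and ligands. In aggregates 3 of 13 Eph receptors rose (Epha3, Epha4 and Ephb1) and 2 fell (Epha2 and Ephb6), while of 8 ephrins 1 rose (Efna4) and 2 fell (Efnb2 and Efna5). In dispersed cells 5 receptors rose and 2 fell, and 3 ephrins fell. Of all genes 30.0% were called in aggregates and 28.8% in dispersed cells. The difference between the receptors and the ligands was not tested.

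Epha3, a receptor for A-type ephrins, read 98.5, 102 and 137 in DMSO aggregates and 850, 928 and 613 in BIO aggregates, a difference of 2.81 ± 0.19 (adjusted p = 1.44e-08). In dispersed cells it read 107, 74.0 and 96.7 in DMSO and 2289, 2136 and 2216 in BIO, a difference of 4.58 ± 0.19 (adjusted p = 5.05e-11). The BIO arrays lay above the DMSO arrays in both formats, and the dispersed ones above the aggregates. Withdrawal took it to 33.1, 48.3 and 44.2, around background, while BIO kept gave 796, 827 and 1066, at least 19.5-fold higher (adjusted p = 1.87e-10). A second probe set rose with BIO in both formats (4.41 ± 0.80 and 6.78 ± 0.80, adjusted p = 0.000642 and 9.46e-06 over all probe sets), and the 2 others read far below background.

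Epha4, a receptor for ephrins of both classes, rose and then stayed. It read 451, 659 and 634 in DMSO aggregates, 3053, 2948 and 1994 in BIO aggregates (2.19 ± 0.17, adjusted p = 4.70e-08), 2363, 2398 and 2492 after withdrawal and 3267, 3129 and 3676 with BIO kept. Over the DMSO day it changed by -0.12 ± 0.17 (adjusted p = 0.657), and the 48 h groups differed by 0.47 ± 0.17 (adjusted p = 0.0568). In dispersed cells BIO raised it by 1.39 ± 0.17 (adjusted p = 7.04e-06). The 5 Epha4 probe sets do not behave alike: in aggregates a second rose by 0.79 ± 0.15 (adjusted p = 0.000992 over all probe sets) but read -0.40 ± 0.15 in dispersed cells (adjusted p = 0.0750), and 2 others rose over the DMSO day by 2.64 ± 0.66 and 3.37 ± 0.79 (adjusted p = 0.00869 and 0.00602). With the mean of all probe sets the rise was 0.97 in aggregates and 0.79 in dispersed cells, and neither passed (adjusted p = 0.0836 and 0.168).

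Ephb1, a receptor for B-type ephrins, followed a like course: 86.6, 144 and 132 in DMSO aggregates, 258, 273 and 233 in BIO aggregates (1.10 ± 0.21, adjusted p = 0.000601, and 0.284 with the beta-actin covariate), 499, 457 and 597 after withdrawal and 661, 659 and 704 with BIO kept. Both 48 h groups thus stood above every 24 h array, and the difference between them was 0.39 ± 0.21 (adjusted p = 0.217). Fresh cells held 324, 226 and 278.

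Epha7 differed with the culture format on the probe set used. It read 136, 221 and 169 in dispersed DMSO cells and 1336, 1558 and 1574 in dispersed BIO cells, a rise of 3.10 ± 0.40 (adjusted p = 1.76e-05). In aggregates it read 331, 302 and 99.9 in DMSO and 184, 161 and 397 in BIO, groups that overlap (0.08 ± 0.40, adjusted p = 0.913). The value in aggregates was 2.14 with the beta-actin covariate and passed (adjusted p = 0.00604). A second probe set of similar brightness rose in both formats, by 2.37 ± 0.14 and 1.13 ± 0.14 (adjusted p = 3.45e-09 and 1.70e-05 over all probe sets), and more in dispersed cells (difference -1.24 ± 0.20, adjusted p = 0.00628). Epha2 fell with BIO in both formats (-0.98 ± 0.23 and -1.56 ± 0.23, adjusted p = 0.00339 and 5.78e-05), after a rise in culture from 295, 261 and 284 in fresh cells to 827, 785 and 932 in dispersed DMSO cells and 627, 615 and 729 in DMSO aggregates.

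Efnb2, a transmembrane ephrin and the one with the highest mean signal, rose in DMSO culture and was lower with BIO at 24 h. Fresh cells read 773, 747 and 877. DMSO aggregates read 2346, 2595 and 2546 and dispersed DMSO cells 2691, 2891 and 2944, rises of 1.64 ± 0.09 (adjusted p = 6.48e-10) and 1.83 ± 0.09 (adjusted p = 1.69e-10). With BIO the signals were 755, 753 and 670 in aggregates and 941, 922 and 972 in dispersed cells, lower than DMSO by -1.78 ± 0.09 (adjusted p = 2.75e-10) and -1.59 ± 0.09 (adjusted p = 7.84e-10). After withdrawal Efnb2 stood at 2797, 2916 and 2623, and with BIO kept at 1699, 1786 and 1980, so it also rose over a second day in BIO, by 1.32 ± 0.09 (adjusted p = 4.62e-08). Of its 3 other probe sets the brightest fell in both formats (-0.97 ± 0.16 and -1.22 ± 0.16, adjusted p = 0.000224 and 2.32e-05 over all probe sets), and with the mean of all 4 the rise over the DMSO day was 0.45 and did not pass (adjusted p = 0.0628).

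Efna5, a glycolipid-anchored ephrin, read 1929, 1480 and 1268 in DMSO aggregates and 526, 507 and 636 in BIO aggregates (-1.47 ± 0.17, adjusted p = 4.52e-06), and 1659, 1279 and 1075 after withdrawal. It fell by 1.24 ± 0.17 in dispersed cells (adjusted p = 2.76e-05). Its other probe set read below background, and with the mean of both the fall in aggregates did not pass (-0.82, adjusted p = 0.0527). At 48 h 7 of 8 ephrins differed between BIO kept and withdrawn, 3 higher and 4 lower with BIO kept. Of all genes 11.1% were higher and 9.29% lower in that comparison (20.4% together). The largest ephrin rise was in Efna3 (1.19 ± 0.20, adjusted p = 0.000403) and the largest fall in Efna1 (-0.79 ± 0.18, adjusted p = 0.00551). These last examples were picked after their values were seen.

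Of the Slits, Slit2 was bright throughout and Slit1 followed BIO. Slit2 signals ran from 5421 to 8900 over all 21 arrays; BIO lowered it by 0.52 ± 0.09 in aggregates (adjusted p = 0.00028) and 0.39 ± 0.09 in dispersed cells (adjusted p = 0.00335). Slit1 read 455, 271 and 337 in fresh cells, 135, 108 and 111 in DMSO aggregates and 287, 362 and 285 in BIO aggregates. It fell in culture by 1.55 ± 0.16 (adjusted p = 1.63e-06), rose with BIO by 1.39 ± 0.16 (adjusted p = 5.97e-06), and returned to 113, 135 and 135 after withdrawal (-1.28 ± 0.16, adjusted p = 2.77e-05, and -0.95, adjusted p = 0.140 with the beta-actin covariate). Its second probe set fell and rose in the same comparisons (-2.98 ± 0.18 and 2.39 ± 0.18, adjusted p = 6.53e-09 and 8.68e-08 over all probe sets).

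Robo2, the Slit receptor of the nephrogenic mesenchyme, fell in culture. Fresh cells read 443, 1595 and 1401, a wide spread in which even the lowest array exceeded every cultured one. Dispersed DMSO cells read 130, 91.8 and 185 (-2.93 ± 0.38, adjusted p = 1.46e-05) and DMSO aggregates 54.9, 64.3 and 72.0 (-3.95 ± 0.38, adjusted p = 6.34e-07). At 24 h of BIO the aggregates read 33.5, 30.2 and 46.8, below background as a group and at least 22.4-fold under fresh cells (adjusted p = 1.52e-07), and the difference from DMSO did not pass in aggregates (-0.79 ± 0.38, adjusted p = 0.137) or in dispersed cells (0.62 ± 0.38, adjusted p = 0.261). At 48 h it read 137, 78.3 and 103 with BIO kept and 23.4, 31.2 and 25.6 with BIO withdrawn, at least 2.44-fold apart (adjusted p = 0.00149). Robo2 has 1 probe set on the array.

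Robo1, the Robo receptor with the highest mean signal, fell in culture and rose with BIO. It read 2319, 2861 and 2209 in fresh cells, 812, 1132 and 988 in DMSO aggregates, 1715, 1991 and 1617 in BIO aggregates, and 3346, 3913 and 3831 with BIO kept, above every other array. BIO raised it by 0.87 ± 0.15 in aggregates (adjusted p = 0.000237, and 0.171 with the beta-actin covariate) and by 1.68 ± 0.15 in dispersed cells (adjusted p = 2.03e-07). Its probe sets disagree on the fall in culture: the chosen one fell by 1.34 ± 0.15 in DMSO aggregates (adjusted p = 2.74e-06) while a dimmer one rose by 0.57 ± 0.16 (adjusted p = 0.0151 over all probe sets). Robo3 passed in no comparison, and Robo4, a receptor of endothelial cells, fell in dispersed DMSO cells against fresh cells (-1.10 ± 0.23, adjusted p = 0.00151), where 4 of 12 endothelial markers fell and none rose. The part of endothelial cells in that result was not tested.

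BIO lowered 2 of 4 netrins in both formats, Ntn4 and Ntn1, and raised the receptors Dcc and Unc5d, though in aggregates neither rise held with the beta-actin covariate. Of all genes 12.5% fell and 17.5% rose in aggregates, and 13.4% fell and 15.3% rose in dispersed cells. Unc5c fell in both formats and Unc5b in dispersed cells. Ntn4, the netrin of basement membranes, read 105, 35.2 and 86.7 in fresh cells, 370, 429 and 471 in DMSO aggregates and 711, 781 and 666 in dispersed DMSO cells, a rise in culture of 2.60 ± 0.39 (adjusted p = 7.66e-05) and 3.37 ± 0.39 (adjusted p = 4.50e-06). With BIO it read 60.8, 167 and 71.8 in aggregates and 49.2, 36.2 and 76.2 in dispersed cells, lower than DMSO by -2.21 ± 0.39 (adjusted p = 0.000369) and -3.78 ± 0.39 (adjusted p = 1.49e-06). Withdrawal brought it back to 483, 601 and 658, while BIO kept gave 87.0, 61.6 and 92.6 (-2.85 ± 0.39, adjusted p = 5.09e-05). Its other probe set read far below background.

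Ntn1, the classical secreted netrin, was already present in fresh cells, at 383, 261 and 210, and did not pass in either DMSO culture (0.47 ± 0.29 and 0.23 ± 0.29, adjusted p = 0.235 and 0.611). It read 366, 374 and 409 in DMSO aggregates and 90.3, 67.4 and 60.5 in BIO aggregates (-2.40 ± 0.29, adjusted p = 7.85e-06), and fell by 1.78 ± 0.29 in dispersed cells (adjusted p = 0.000167). At 48 h it read 34.3, 45.7 and 44.5 with BIO kept, at least 5.29-fold below the 284, 351 and 134 of BIO withdrawn (adjusted p = 8.13e-06). A second, dimmer probe set did not pass (-0.06 ± 0.23 in aggregates, adjusted p = 0.893).

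Dcc, the attractive netrin receptor, was below background in fresh cells (36.9, 17.5 and 14.2) and in dispersed DMSO cells (18.1, 63.0 and 39.0). Dispersed BIO cells read 1104, 1133 and 1157, at least 23.1-fold higher than with DMSO (adjusted p = 1.02e-07). In aggregates it read 81.0, 94.3 and 122 in DMSO and 340, 342 and 234 in BIO, a smaller rise of 1.61 ± 0.41 (adjusted p = 0.00617). With the beta-actin covariate the rise in aggregates was 0.79 and did not pass (adjusted p = 0.582). BIO kept gave 1486, 1212 and 1394 and BIO withdrawn 43.3, 31.0 and 16.9, at least 31.4-fold apart (adjusted p = 6.09e-08), so Dcc was again below background a day after BIO was removed. Of its 3 probe sets a second gave the same rise in dispersed cells (4.09 ± 0.49, adjusted p = 1.13e-05 over all probe sets) but not a passing one in aggregates (1.26 ± 0.49, adjusted p = 0.0759), and the dimmest passed in neither (-0.11 ± 0.36 in aggregates, adjusted p = 0.881). Since Dcc is best known from neurons, the 7 measured neuron and Schwann cell markers are given beside it: 1 rose with BIO in both formats (Elavl3), 3 fell in dispersed cells (Stmn2, Tubb3 and Elavl4), and none differed between BIO kept and withdrawn. Their summed signal was 756 to 957 in dispersed BIO cells and 1173 to 1408 in dispersed DMSO cells. Against fresh cells 3 of the 7 rose and 1 fell in each BIO group at 24 h, and 2 rose and none fell in each DMSO culture. Of all genes 30.0% were called with BIO in aggregates, 28.8% in dispersed cells and 20.4% between BIO kept and withdrawn. In BIO aggregates and dispersed BIO cells against fresh cells 33.7% and 25.9% were called. From 3 to 5 of the 7 markers were above background in a group.

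The repulsive Unc5 receptors differed among themselves. Unc5c, the brightest of them by mean signal, read 5878, 6607 and 5403 in fresh cells and at most 2364 on any cultured array. It fell in DMSO aggregates by 1.44 ± 0.10 (adjusted p = 1.27e-08) and in dispersed DMSO cells by 2.08 ± 0.10 (adjusted p = 1.81e-10), and BIO lowered it further, to 934, 934 and 923 in aggregates (-1.23 ± 0.10, adjusted p = 8.28e-08). Withdrawal returned it to 2305, 2219 and 2187, against 667, 796 and 827 with BIO kept (-1.56 ± 0.10, adjusted p = 1.11e-08). A second probe set fell with BIO as well (-1.19 ± 0.22 in aggregates, adjusted p = 0.000671 over all probe sets).

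Unc5d read 30.3, 52.2 and 67.3 in DMSO aggregates and 103, 82.6 and 66.2 in BIO aggregates, ranges that overlap (0.79 ± 0.26, adjusted p = 0.0279), and with the beta-actin covariate the sign turned (-0.25, adjusted p = 0.76). With BIO kept it reached 349, 390 and 472, against 115, 100 and 101 with BIO withdrawn (1.92 ± 0.26, adjusted p = 3.74e-05). Unc5b rose in culture and again on the second day whichever treatment followed. It read 142, 192 and 205 in fresh cells, 466, 511 and 619 in DMSO aggregates (1.57 ± 0.16, adjusted p = 1.47e-06), 412, 475 and 318 in BIO aggregates, 1639, 1553 and 1519 after withdrawal and 1332, 1199 and 1476 with BIO kept. In dispersed cells it read 669, 520 and 638 in DMSO and 373, 378 and 416 in BIO, a fall of 0.64 ± 0.16 with no overlap (adjusted p = 0.00662). The 48 h groups differed by -0.24 ± 0.16 (adjusted p = 0.355), and the rises over the second day were 1.98 ± 0.16 after withdrawal (adjusted p = 2.28e-07) and 1.75 ± 0.16 in BIO (adjusted p = 1.31e-06). Unc5a passed in none of the 12 comparisons.

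The BIO effect in aggregates and in dispersed cells was measured on separate arrays. Of the 16 that rose in aggregates 14 rose in dispersed cells too (87.5% of each list), all 13 that fell in aggregates also fell in dispersed cells (68.4% of the 19), and none was called in opposite directions. Over all genes the same shares were 63.3% and 72.2% of those that rose and 74.2% and 69.1% of those that fell, with 24 called in opposite directions. Across the 66 genes the differences had a Pearson r of 0.862 and a Spearman rho of 0.797, and across all 18193 genes 0.738 and 0.604. These describe genes, which are not independent replicates. Efna4 and Sema4f rose in aggregates and did not pass in dispersed cells.

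**Figure D3:**
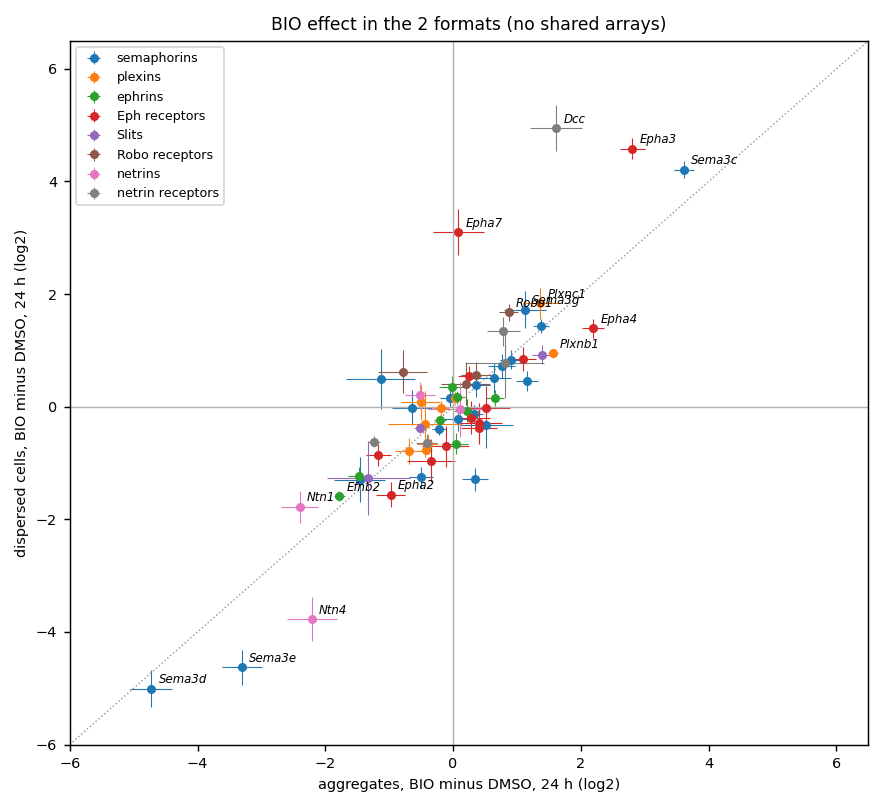
Log2 difference between BIO and DMSO at 24 h for the 66 guidance genes in aggregates (horizontal axis) and dispersed cells (vertical axis), coloured by family, with bars of 1 SE and the line of equal effects dotted. Sema3c, Epha3 and Dcc lie high on both axes and Sema3d and Sema3e low on both, and Epha7 lies at 3.10 in dispersed cells and 0.08 in aggregates.

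For 6 members the size of the BIO effect differed between the formats by the test of the difference itself, where 1.57% of all genes passed (0.726% and 0.841% by direction). The effect in aggregates was smaller for Dcc (-3.34 ± 0.57, adjusted p = 0.00611), Epha7 (-3.02 ± 0.57, adjusted p = 0.0113) and Epha3 (-1.78 ± 0.27, adjusted p = 0.00261), and the fall of Unc5c was larger there (-0.62 ± 0.14, adjusted p = 0.0354). Dcc lay below background in dispersed DMSO cells, so its value here is not an exact size. It read 1.43 higher in DMSO aggregates than in dispersed DMSO cells, which did not pass. Plxnb1 rose more in aggregates (0.61 ± 0.12, adjusted p = 0.0116). Sema3f, another secreted class 3 semaphorin, read 788, 557 and 703 in dispersed DMSO cells and 245, 290 and 294 in dispersed BIO cells (-1.29 ± 0.21, adjusted p = 0.000155), and in aggregates 867, 697 and 767 in DMSO and 1047, 1033 and 867 in BIO (0.34 ± 0.21, adjusted p = 0.253), a difference of 1.63 ± 0.29 (adjusted p = 0.00867). The chosen Sema3f probe set is of a kind that can bind other transcripts, and a second one differed the same way (2.76 ± 0.42, adjusted p = 0.00474 over all probe sets). The beta-actin control was lowest in the BIO aggregates. With it as a covariate the differences for Dcc and Epha3 still passed and the other 4 did not. With only the compared arrays in the fit the call for Epha7 was lost (adjusted p = 0.0645), and with the mean of all probe sets those for Epha3 (-1.34, adjusted p = 0.0978), Plxnb1 (0.45, adjusted p = 0.245) and Unc5c (-0.42, adjusted p = 0.471). The Unc5c call was also lost when any of 10 of the 12 arrays was left out, with adjusted p up to 0.0946.

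Without BIO, 1 member differed between the formats. Unc5c was higher in DMSO aggregates than in dispersed DMSO cells, at 2187, 2035 and 2364 against 1484, 1345 and 1396 (0.64 ± 0.10, adjusted p = 0.00421), and no other member passed. With only the compared arrays in the fit this call did not pass either (adjusted p = 0.126). In BIO the largest differences were in Epha7 (-2.70 ± 0.40, adjusted p = 0.000457), Robo2, which was at least 4.53-fold lower in aggregates (adjusted p = 0.000649), Dcc (-1.91 ± 0.41, adjusted p = 0.00528) and Sema3f (1.83 ± 0.21, adjusted p = 5.52e-05). With the beta-actin covariate 4 members passed in this comparison instead of 18, and Epha7, Robo2 and Dcc were among those lost (-0.92, -1.40 and -2.62, adjusted p = 0.274, 0.234 and 0.0628).

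The comparison of BIO kept with BIO withdrawn asks which of these differences went with BIO still being present. Of the 16 that BIO raised in aggregates, 10 were also higher with BIO kept than withdrawn (Dcc, Efna4, Epha3, Plxnc1, Robo1, Sema3c, Sema4f, Sema6a, Slit1 and Unc5d), and 6 did not pass (Epha4, Ephb1, Plxnb1, Sema3g, Sema4c and Sema4d). Of the 13 that it lowered, 9 were also lower with BIO kept (Efna5, Efnb2, Ntn1, Ntn4, Plxnb2, Plxnd1, Sema3d, Sema3e and Unc5c) and 4 did not pass (Epha2, Ephb6, Sema7a and Slit2). None was called in opposite directions in these comparisons, which share no arrays. The 10 are 62.5% of the members raised in each comparison and the 9 are 69.2% of those lowered in each. Over all genes the shares were 27.6% and 43.4% of those that rose and 34.7% and 46.6% of those that fell, with 478 called in opposite directions. Across the 66 genes r was 0.640 and rho 0.563, and across all genes 0.375 and 0.255.

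**Figure D4:**
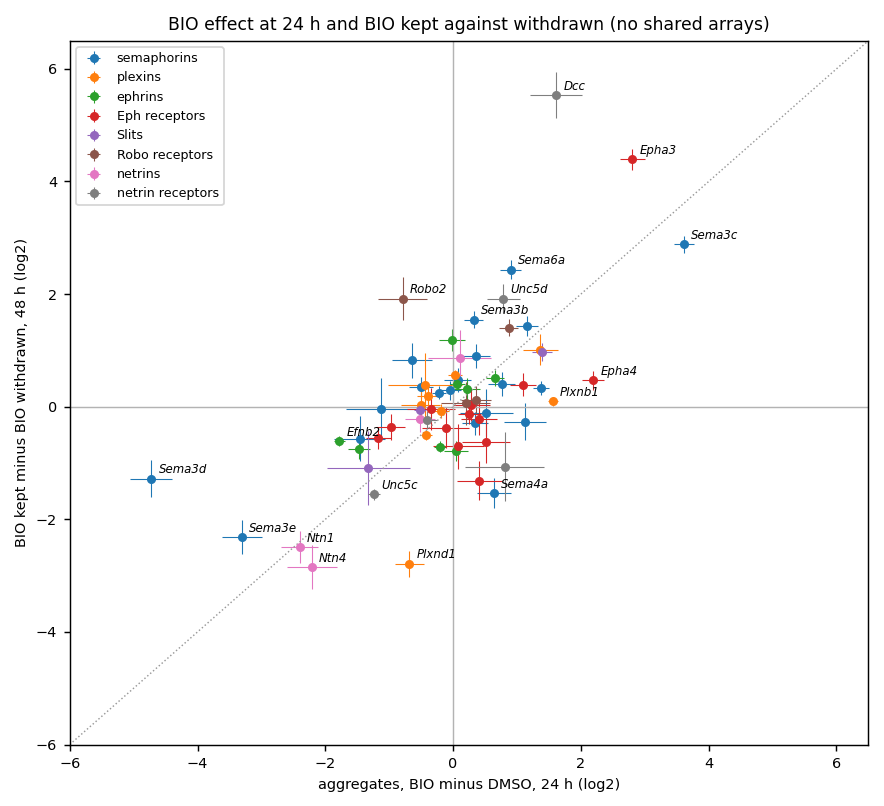
Log2 difference between BIO and DMSO in aggregates at 24 h (horizontal axis) and between BIO kept and BIO withdrawn at 48 h (vertical axis) for the 66 guidance genes, coloured by family, with bars of 1 SE and the line of equal effects dotted. Dcc, Epha3 and Sema3c lie high on both axes, Epha4 and Plxnb1 lie near 0 on the vertical one (0.47 and 0.10), and Plxnd1 lies at -2.79 there against -0.68 at 24 h.

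The second day added changes of its own. With BIO kept the largest rises were in Sema5a, Unc5d (2.26 ± 0.26, adjusted p = 9.03e-06), Dcc (2.17 ± 0.41, adjusted p = 0.00106), Unc5b, Robo2 (at least 2.35-fold, adjusted p = 0.01) and Sema6a (1.43 ± 0.17, adjusted p = 1.24e-05). The largest falls were in Sema3d (-1.39 ± 0.33, adjusted p = 0.00651), Sema3e (at least 1.82-fold, adjusted p = 0.00659) and Ephb3 (-1.15 ± 0.35, adjusted p = 0.0265), followed by Sema3c, Efna1 and Plxna1. Under the beta-actin covariate 9 members rose and none fell. The calls for Sema3d (-1.68, adjusted p = 0.069), Sema3e (-1.49, adjusted p = 0.0821), Ephb3 (-0.36, adjusted p = 0.766), Sema3c (-0.45, adjusted p = 0.205), Efna1 (-0.82, adjusted p = 0.119), Plxna1 (-0.51, adjusted p = 0.142) and Robo2 (0.57, adjusted p = 0.622) were lost, with the same sign. Without replicate 1 of the BIO aggregates at 24 h, 11 members rose and 5 fell, and without replicate 3 of the aggregates kept in BIO 11 rose and 11 fell. The Ephb3 fall was also lost without replicate 1 of the aggregates kept in BIO (-0.63, adjusted p = 0.122) or any array of BIO aggregates at 24 h. With only the compared arrays the falls of Ephb3, Sema3e, Efna1 and Plxna1 did not pass (adjusted p = 0.201, 0.116, 0.0585 and 0.0566). With the mean of all probe sets those of Sema3d (-0.54, adjusted p = 0.377), Efna1 and Plxna1 did not. Over the DMSO day after BIO the largest rises were in Ntn4 (2.66 ± 0.39, adjusted p = 0.000116), Plxnd1, Unc5b, Sema5a, Efnb2 (1.94 ± 0.09, adjusted p = 2.76e-10) and Epha7 (1.87 ± 0.40, adjusted p = 0.00277), the last of which turned to -0.52 with the covariate. The largest falls were in Epha3 (at least 17.2-fold, adjusted p = 3.72e-10), Sema3c, Dcc (at least 6.96-fold, adjusted p = 1.67e-05), Sema3b (-1.51 ± 0.15, adjusted p = 1.99e-06), Slit1 and Sema6a (-1.01 ± 0.17, adjusted p = 0.000334). With the covariate 13 members passed instead of 33, and the calls for Dcc, Sema3b, Slit1 and Sema6a were lost (-2.40, -1.06, -0.95 and -0.49, adjusted p = 0.133, 0.0564, 0.140 and 0.484).

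Other genes of the same pathways, 69 measured of 71 listed, also moved both ways: 9 rose and 17 fell with BIO in aggregates, 10 and 18 in dispersed cells, and 12 and 12 with BIO kept against withdrawn. All genes passed in 30.0%, 28.8% and 20.4% of cases in these comparisons. The neuropilins, coreceptors of class 3 semaphorins, moved apart. Nrp1 read 6594, 7481 and 8008 in DMSO aggregates and 1392, 1367 and 1904 in BIO aggregates, a fall of 2.26 ± 0.14 (adjusted p = 6.52e-09), with -2.99 ± 0.14 in dispersed cells (adjusted p = 1.93e-10). Nrp2 rose from 105, 138 and 141 to 372, 395 and 353, by 1.55 ± 0.16 (adjusted p = 1.66e-06), and by 2.04 ± 0.16 in dispersed cells (adjusted p = 6.01e-08). Among cytoplasmic effectors Dpysl3, of the collapsin response mediator family, fell by 3.39 ± 0.18 in aggregates and 2.57 ± 0.18 in dispersed cells (adjusted p = 7.66e-10 and 1.55e-08), and its relative Dpysl5, below background in both DMSO groups, was at least 2.11-fold and 1.24-fold higher with BIO (adjusted p = 0.000605 and 0.016). Neither Dpysl5 call held with the beta-actin covariate (adjusted p = 0.35 and 0.0664), and those of Nrp1, Nrp2 and Dpysl3 in both formats did. Flrt3, a ligand of Unc5 receptors, rose in dispersed cells (2.38 ± 0.19, adjusted p = 5.59e-08) and with BIO kept against withdrawn (1.47 ± 0.19, adjusted p = 2.20e-05).

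Most markers of interstitial stroma were lower with BIO, at 24 h and at 48 h. Of 10 stromal markers 8 fell and none rose with BIO in aggregates, 7 fell and 1 rose in dispersed cells, and 8 were lower with BIO kept than withdrawn. Of all genes 12.5%, 13.4% and 9.29% were lower in these comparisons. The summed signal of the stromal markers was 15185 to 16453 in DMSO aggregates and 4329 to 4589 in BIO aggregates, 13670 to 14690 and 3800 to 4131 in dispersed cells, and 12924 to 14543 with BIO withdrawn and 2701 to 3366 with BIO kept. Foxd1, a defining marker, read 5060, 4510 and 4635 in DMSO aggregates and 883, 890 and 1096 in BIO aggregates, and no stromal marker was at 0. Over the DMSO day after BIO 7 stromal markers rose and none fell, where 8.66% of all genes rose. Over that day Ntn4, Plxnd1, Efnb2 and Sema3e also rose, and Sema3d did not pass. The part of stromal cells in the falls of Sema3d, Sema3e, Ntn1, Ntn4, Efnb2, Plxnd1 and Unc5c was not tested. Of 4 measured podocyte markers 2 fell with BIO in each format, and 2 were lower with BIO kept than withdrawn. Of 8 leukocyte markers 4 fell with BIO in dispersed cells, and in aggregates 1 rose and 1 fell. Of 9 ureteric bud markers 2 were higher in BIO aggregates, 1 in dispersed BIO cells and 2 with BIO kept, and none lower. Of all genes 17.5%, 15.3% and 11.1% were higher in these comparisons. Endothelial markers gave 1 rise of 12 in aggregates, none in dispersed cells and 2 with BIO kept.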

How the data were processed

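RNA of 40000 sorted cells a sample was amplified in 2 rounds and hybridised to 21 Affymetrix mouse arrays, per the labels' protocols. The authors deposited 1 table of linear signal intensity for 45101 probe sets. Which software, summarisation and scaling gave these intensity values is not stated in the labels or the deposited table. Values were log2(value + 1) transformed and quantile normalised. Probe sets were named through RefSeq and the platform annotation, 34945 with a single symbol, and 18193 genes were each taken by the probe set with the highest mean. limma 3.58.1 in R 4.3.3 fitted 1 mean for each group over all arrays, with Benjamini-Hochberg adjustment over all genes. The fit was tested on simulated data. The number of arrays limits the precision.

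Genes named with values are, in each comparison, up to 6 rises and 6 falls by size among members that passed with a group above background, the brightest member of each family, and Dcc; other members named were picked after their values were seen. The members, families, pathway genes and marker lists were chosen with earlier results of these data known. Alternatives were other scalings, a pseudocount of 16, a filter on dim genes, all probe sets of a gene, only the compared arrays, a trended robust prior, array numbers as a replicate block, the beta-actin control as a covariate and each array left out. Promoter windows came from RefSeq (GRCm38.p6), which matched 56 members; Sema6a, Unc5d, Ntn1, Plxna4, Dcc, Slit1, Plxna1, Sema3b, Efnb3 and Sema3f were not matched.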

Additional observations from a re-analysis of the deposited data

Results flagged for a closer look

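The BIO effect differed between aggregates and dispersed cells for 6 guidance genes, by the test of that difference in limma over all genes. In log2 units, as aggregates minus dispersed cells, the difference was -3.34 for Dcc, -3.02 for Epha7, -1.78 for Epha3, -0.62 for Unc5c, 0.61 for Plxnb1 and 1.63 for Sema3f. The value for Dcc is not an exact size, as Dcc lay below background in dispersed DMSO cells. Dcc and Epha3 rose in both formats and more in dispersed cells, Epha7 passed in dispersed cells only on the probe set used, Unc5c fell in both and more in aggregates, Plxnb1 rose in both and more in aggregates, and Sema3f fell in dispersed cells while its value in aggregates did not pass. With the beta-actin control, lowest in the BIO aggregates, as a covariate, Dcc and Epha3 passed and Plxnb1 (0.47), Epha7 (-1.55), Sema3f (1.73) and Unc5c (-0.78) did not.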

How the results depend on the processing

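With each array left out in turn, the members called ranged from 27 to 29 for BIO in aggregates, 30 to 35 for BIO in dispersed cells, 5 to 6 for the difference of the BIO effects, 26 to 30 for BIO kept against withdrawn, 1 to 2 for aggregates against dispersed cells in DMSO and 13 to 16 in BIO, 27 to 30 and 29 to 33 for DMSO aggregates and dispersed cells against fresh cells, 24 to 27 and 22 to 26 for the BIO groups against fresh cells, 16 to 23 over the second day in BIO, and 27 to 31 over the DMSO day. The higher count in DMSO, 2, came without replicate 2 of the dispersed DMSO cells. With the beta-actin covariate the counts were 18 for BIO in aggregates (29 as reported), 2 for the difference of effects (6), 4 for aggregates against dispersed cells in BIO (18), 13 for BIO aggregates against fresh cells (29), 9 for the second day in BIO (25) and 13 for the DMSO day (33). With only the compared arrays they were 19 for BIO kept against withdrawn (29), 14 for the second day (25) and 0 for aggregates against dispersed cells in DMSO. That last count was 4 with median centring, 0 with the mean of all probe sets, and 2 with a trended robust prior or a pseudocount of 16, and the difference of effects gave 3 with the mean of all probe sets. The mean of all probe sets turned the sign of Sema5a (-0.13), Epha4 (-0.90) and Efna5 (0.13) for aggregates against dispersed cells in BIO and of Epha4 (-0.31) and Robo1 (0.20) for BIO aggregates against fresh cells, and the covariate that of Epha7 (-0.52) for the DMSO day and of Unc5d (-0.25) for BIO in aggregates. The covariate also turned the sign of 1 called member for BIO aggregates against fresh cells. The cause was not tested. Of 127 gene results named for their size, 127 kept direction and call with the dim filter, with median centring, with a pseudocount of 16 and with a trended robust prior, and 126 with the deposited scaling. Fewer kept them with only the compared arrays (118), the mean of all probe sets (105) and the beta-actin covariate (98). Another probe set of the gene existed for 105 of these results. For 64 of them at least 1 other probe set passed in the same direction, for 41 none passed, and none passed in the opposite direction. Array numbers do not pair the samples: over 63 pairs of arrays with the same number the correlation of deviations ran from -0.39 to 0.26, and 2 of 21 arrays went best with their own number. With the replicate number as a block 29 members were still called for BIO in aggregates, and 2 of the 127 named results lost their call. Those were Unc5c for the difference of effects (adjusted p = 0.067) and Sema3e for aggregates against dispersed cells in BIO (adjusted p = 0.0538). Signals near background limit what can be said of Dcc, Epha3, Robo2, Ntn1 and Sema3e in their dim groups.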
